A study of Mus musculus with 6 samples.

Results

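The genes described here are 38 genes of mitosis and cytokinesis, taken by name from a published-knowledge list and followed through 6 bulk RNA-seq libraries of mouse embryonic blood cells. All 38 were found by symbol among 17909 genes of the deposited table. They cover cyclins and CDK1, mitotic kinases, the chromosomal passenger complex, the spindle checkpoint, partners of the anaphase-promoting complex, centromere and kinetochore proteins, spindle motors, the midzone and cytokinesis, and chromosome structure.

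Cells descended from erythro-myeloid progenitors (EMPs, yolk sac-derived blood progenitors that seed the fetal liver) were sorted from C57BL/6xFVB embryos that carried Csf1r-iCre, in which the recombinase is driven by the promoter of the macrophage growth factor receptor gene Csf1r. The groups were macrophage-labelled cells of the fetal liver at E11.5, EMPs of the fetal liver at E11.5, mast cell progenitors (MCPs) of the fetal liver at E11.5, MCPs of the limb at E11.5, MCPs of the limb at E14.5, and cells of the skin at E16.5 that are titled MCPs and described as mast cells. All groups shared the Csf1r-iCre allele and background, and no label names a treatment. Each group was 1 library, so there was no replicate, no standard error and no test, and every difference below is a difference between libraries. The number of embryos pooled per library is not given in the sources used here.

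A dividing cell raises cyclin A2 and the B cyclins, which switch on CDK1 and take the cell into mitosis. The spindle checkpoint then holds the anaphase-promoting complex until chromosomes are attached, and the complex afterwards destroys cyclins and other mitotic proteins so that the cell can divide. Many genes of this set are transcribed late in the cell cycle through a shared promoter element, the cell cycle genes homology region (CHR), bound by the MuvB core with MYBL2 and FOXM1, often beside CCAAT boxes bound by NF-Y. Mast cell progenitors proliferate before and after they enter tissue, while mature mast cells divide little.

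The CHR and CCAAT letters were sought in the promoters because many genes of this set are described as sharing these elements. RefSeq promoters (GRCm38.p6, from 250 bases before to 50 bases after the annotated start) were matched for 32 of the 38 genes, with Ccna2, Smc4, Tpx2, Incenp, Aurkb and Kif20a unmatched. On either strand, the CHR letters TTTGAA were found in 25 of the 32 genes (78.1%), against 17.9% of all 32851 promoters of the table. CCAAT was also found in 25 of 32, against 37.4% of all promoters. Both motifs stood together in 22 genes (68.8%), against 6.95% of all promoters. Within 50 bases of the start, the CHR letters were present in 23 of the 32 genes (71.9%), against 4.94% of all promoters. The letters of the CHR and CCAAT motifs can share at most 1 base where they meet. A match describes letters in a window and does not show that a factor was bound. Birc5, Mad2l1, Nuf2 and Nusap1 held neither motif in this window.

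The windows that follow show how the motifs are laid out, each 120 bases long, 5′ to 3′ on the strand of the gene, with the CHR letters, CCAAT and the CHR variant TTCGAA (either strand, so also TTCAAA and ATTGG) in capitals. All end at the base before the annotated start except that of Mki67, which covers positions -190 to -71 from it. Cdk1 and Mki67 carried 2 CHR matches each, Top2a had 3 CCAAT boxes, and Ccnb1 is shown because its window held 2 CCAAT boxes and no CHR match. The windows lie at chr10:69352913-69353032 (minus strand) for Cdk1, chr4:118437344-118437463 (minus) for Cdc20, chr19:37376262-37376381 (plus) for Kif11, chr2:164769809-164769928 (plus) for Ube2c, chr11:99024190-99024309 (minus) for Top2a, chr7:127042421-127042540 (minus) for Kif22, chr7:135716450-135716569 (minus) for Mki67 and chr13:100786487-100786606 (minus) for Ccnb1.
Cdk1: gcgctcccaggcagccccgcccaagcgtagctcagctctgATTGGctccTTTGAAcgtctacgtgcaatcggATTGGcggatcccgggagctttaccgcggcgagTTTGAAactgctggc
Cdc20: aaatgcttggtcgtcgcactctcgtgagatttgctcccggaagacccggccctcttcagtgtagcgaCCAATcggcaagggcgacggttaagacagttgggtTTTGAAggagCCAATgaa
Kif11: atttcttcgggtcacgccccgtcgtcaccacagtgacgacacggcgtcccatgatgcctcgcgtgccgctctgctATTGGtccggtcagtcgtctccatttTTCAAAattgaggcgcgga
Ube2c: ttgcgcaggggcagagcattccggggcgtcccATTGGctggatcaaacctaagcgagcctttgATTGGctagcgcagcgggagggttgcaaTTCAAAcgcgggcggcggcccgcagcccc
Top2a: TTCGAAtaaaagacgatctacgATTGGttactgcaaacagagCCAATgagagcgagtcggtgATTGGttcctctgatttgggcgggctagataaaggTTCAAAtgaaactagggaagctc
Kif22: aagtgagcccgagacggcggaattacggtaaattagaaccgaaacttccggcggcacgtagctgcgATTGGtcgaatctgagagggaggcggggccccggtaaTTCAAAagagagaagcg
Mki67: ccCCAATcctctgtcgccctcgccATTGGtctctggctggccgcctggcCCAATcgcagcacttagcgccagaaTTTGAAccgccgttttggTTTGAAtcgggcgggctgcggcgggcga
Ccnb1: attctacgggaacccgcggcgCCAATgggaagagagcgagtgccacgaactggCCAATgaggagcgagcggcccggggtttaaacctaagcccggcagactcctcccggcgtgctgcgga

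**Figure D1:**
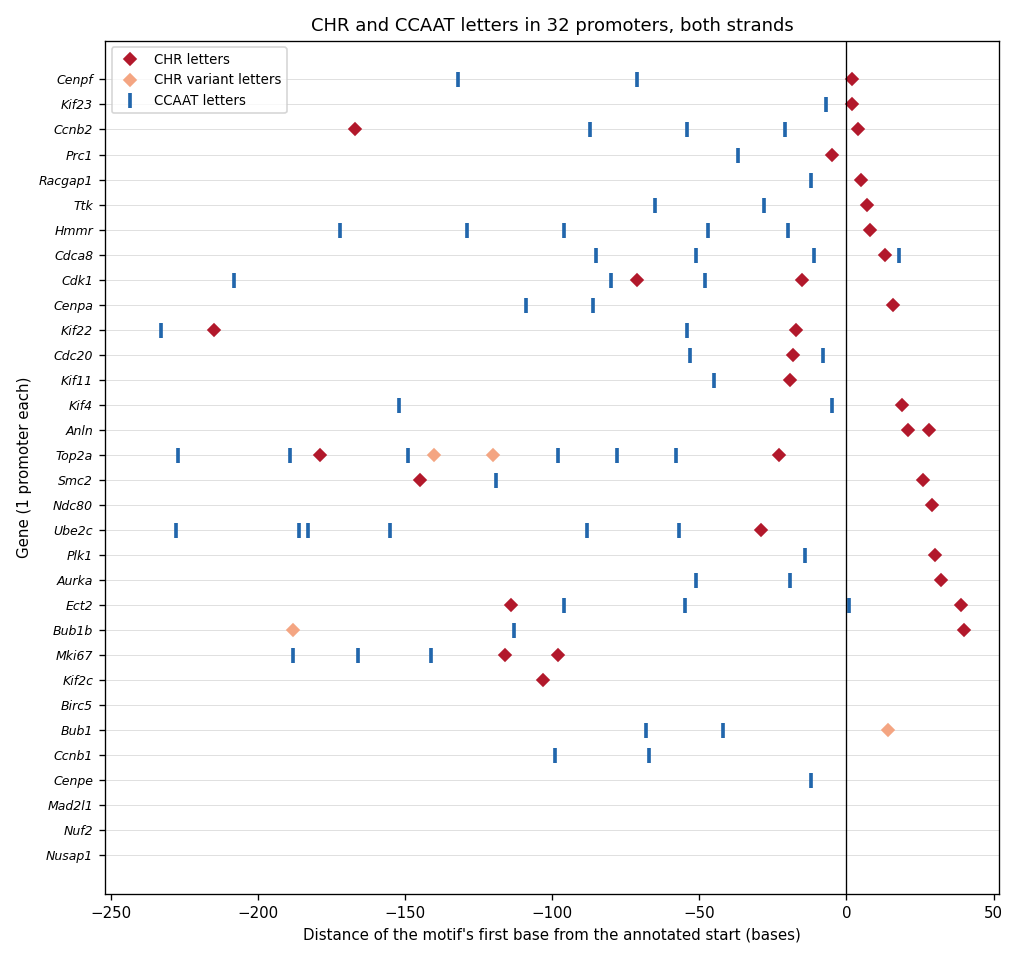
Position of CHR letters (red diamonds), the CHR variant (light diamonds) and CCAAT letters (blue ticks) on either strand in the promoters of 32 member genes (rows), as the distance in bases of the motif's first base from the annotated start (horizontal). CHR matches gather within 50 bases of the start in 23 genes.

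Depth was estimated from the smallest steps between FPKM values (fragments, normalised for transcript length and library total) and lay between 8850000 fragments in limb MCPs at E11.5 and 12600000 in EMPs. At these totals, 1 fragment on a 2 kb transcript was worth 0.0407 to 0.0579 FPKM. Outside the skin library, every member listed above 0 rested on at least 66.7 estimated fragments. In skin the median was 39.5 fragments and 7 members were under 10, so single skin values of such genes carry a wide counting error. The skin library stood apart from the rest: its FPKM sum was 84036 against 140044 to 169289 elsewhere, 5675 of its genes reached an FPKM of 1 against 8270 to 8754, and its median-of-ratios size factor was 0.524 against 1.03 to 1.24. Counts and medians over skin are therefore given both as deposited and after median-of-ratios scaling. Of mast cell markers fixed for the check, 5 of 6 were at an FPKM of at least 1 in skin, where Gata2 was listed at 0, and 6 of 6 in the liver and limb MCP libraries. The macrophage-labelled library had 6 of 7 macrophage markers at an FPKM of at least 1 and summed to 86.0 FPKM for them, but to 6442 for 8 neutrophil and 6457 for 3 eosinophil markers, so markers of other cells stood well above those of its label. In bulk RNA, fewer dividing cells and less RNA of these genes per cell cannot be told apart.

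As a set, the 38 genes had similar medians in the 3 liver libraries, lower ones in the limb and the lowest in skin. Their median FPKM was 15.6 in the macrophage-labelled library, 15.4 in EMPs, 16.485 in liver MCPs, 8.40 in limb MCPs at E11.5, 11.545 in limb MCPs at E14.5 and 1.53 in skin. Over 3429 other genes of like mean expression the medians were 10.8, 13.4, 12.1, 11.04, 11.6 and 4.31 in the same order. The member median thus stood above that of like genes in the liver, below it in the limb at E11.5, near it in the limb at E14.5 and below it in skin. Like genes were matched on the mean over all 6 libraries, skin included. A lower level of the members in skin therefore sets them higher elsewhere, and these positions do not stand independently. Of the FPKM sum, the 38 genes together took 0.676% in the macrophage-labelled library, 0.562% in EMPs, 0.593% in liver MCPs, 0.393% in E11.5 limb, 0.478% in E14.5 limb and 0.161% in skin. As deposited, 17 genes peaked in macrophage-labelled cells, 11 in liver MCPs, 9 in EMPs and 1, Mad2l1, in limb MCPs at E11.5. After median-of-ratios scaling the counts were 25, 10, 3 and 0 in the same order. Skin held the lowest value, or shared it, for all 38 as deposited and for 36 after median-of-ratios scaling.

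**Figure D2:**
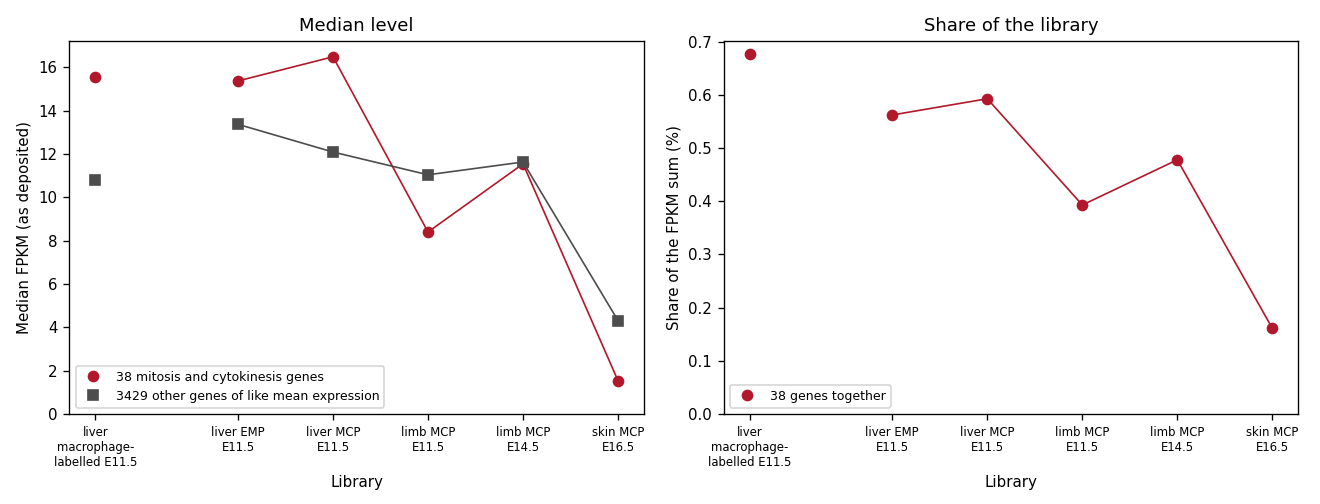
Left, median FPKM as deposited (vertical) of the 38 member genes (circles) and of 3429 other genes of like mean expression (squares) in the 6 libraries (horizontal). Right, the share of each library's FPKM sum (%) held by the 38 genes, which was 0.593% in liver MCPs, 0.393% in limb MCPs at E11.5 and 0.161% in skin; lines join the EMP to mast cell order only, 1 library per point.

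**Figure D3:**
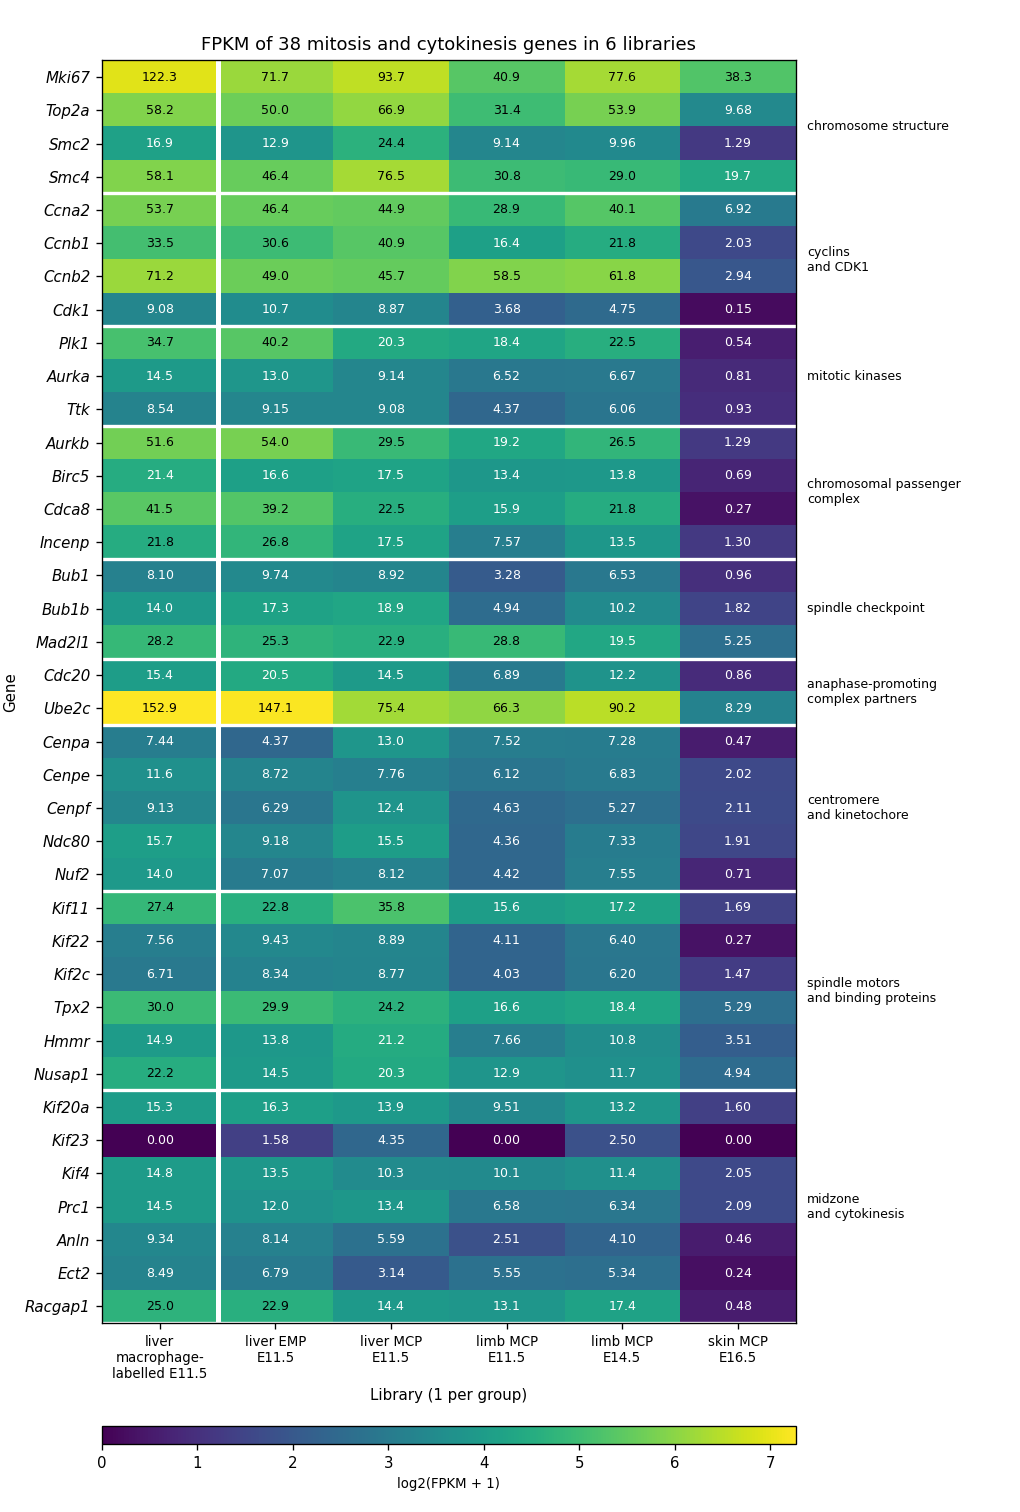
FPKM as deposited of each of the 38 genes (rows, grouped by role) in the 6 libraries (columns), each labelled with its value and coloured by log2(FPKM + 1). Ube2c and Mki67 reached 153 and 122 in the macrophage-labelled library, and the skin column holds the lowest value of each row, shared in the case of Kif23.

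The genes spanned a wide range within each library, and the order among them was not the same in all. Ube2c, the ubiquitin-conjugating enzyme that works with the anaphase-promoting complex, had 153 FPKM in macrophage-labelled cells, 147 in EMPs, 75.4 in liver MCPs, 66.3 in the E11.5 limb, 90.2 in the E14.5 limb and 8.29 in skin. It was the highest member in macrophage-labelled cells, EMPs and both limb libraries. Mki67, which coats mitotic chromosomes and is the usual marker of cycling cells, stood at 122, 71.7, 93.7, 40.9, 77.6 and 38.3 FPKM in the same order. It was the highest member in liver MCPs and skin, and made up 28.3% of the members' summed FPKM in skin, against 10.9% in the limb at E14.5. Cdk1, the kinase that drives entry into mitosis, was far lower per length than its cyclins, at 9.08, 10.7, 8.87, 3.68, 4.75 and 0.15 FPKM. Kif23, the midzone motor of centralspindlin, had an FPKM of 0 in macrophage-labelled cells, limb MCPs at E11.5 and skin, with 1.58 in EMPs, 4.35 in liver MCPs and 2.5 in limb MCPs at E14.5. Whether such an exact 0 was absent RNA or a failed estimate was not tested. Among the 3429 like genes, which were chosen by their mean over the 6 libraries, zeros numbered 3 in macrophage-labelled cells, 5 in limb MCPs at E11.5 and 114 in skin. On GRCm38, Mki67 lies on chromosome 7 at 135689784 to 135716361, Ube2c on chromosome 2 at 164769898 to 164778822, Cdk1 on chromosome 10 at 69335146 to 69352938 and Kif23 on chromosome 9 at 61915905 to 61946774.

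The first comparison set liver MCPs against the EMPs of the same organ and day. The set as a whole stood level, with members on both sides of 0. Genes that reached an FPKM of 1 in one or both libraries were counted, and a call needed a gap of 1 or more in log2(FPKM + 1), that is 2-fold. On that rule 2 of 38 genes were higher in liver MCPs and none was lower, where 9.23% of 9448 genes were higher and 11.6% lower, so neither count exceeds the background. The median difference was -0.06 for the 38 genes, -0.11 for like genes and -0.08 for all genes. Cenpa, the histone H3 variant that marks centromeres, stood at 13.0 FPKM in liver MCPs, against 4.37 in EMPs. Kif23, at 4.35 against 1.58, was the other gene called. Smc2, Smc4 and some kinetochore genes stood on the MCP side without being called: Smc2 and Smc4, the core ATPases of condensin, stood at 24.4 and 76.55 in liver MCPs against 12.9 and 46.4 in EMPs, Cenpf at 12.4 against 6.29 and Ndc80, a microtubule-binding kinetochore subunit, at 15.5 against 9.18. Some kinases and passenger complex genes stood on the opposite side. Plk1, a kinase of spindle assembly and mitotic exit, stood at 20.3 in liver MCPs against 40.2 in EMPs, Aurkb, the kinase of the passenger complex, at 29.5 against 54.0, Cdca8, its borealin subunit, at 22.5 against 39.2, and Ube2c at 75.4 against 147. Ect2, the exchange factor that activates RhoA at the cleavage furrow, read 3.14 against 6.79. Base composition moved with these differences: across the 38 genes the difference had a Pearson r of -0.53 with the GC content of the transcript, and across 3324 like genes with an annotated transcript -0.37 (genes within a pair of libraries are not independent replicates). Its part in these differences was not tested. Neutrophil markers moved with this comparison, 8 of 8 being detected in both libraries with a summed FPKM of 970 in liver MCPs and 10072 in EMPs, and erythroid markers summed to 118.6 in liver MCPs and 27.8 in EMPs with Hbb-y of the 7 listed at 0 in both. The part of these other cells in the members' values was not tested.

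The macrophage-labelled library was set against the same EMPs. Here most of the 38 genes were a little higher, while like genes were a little lower. The median difference was 0.14 for the 38 genes, -0.25 for like genes and -0.24 for all genes, and after median-of-ratios scaling 0.40, -0.00 and -0.01. Above 0 were 26 of the 38 as deposited and 32 after scaling. By the 2-fold rule no gene was called higher and Kif23, listed at 0, was called lower, against 5.86% of 9124 genes higher and 9.84% lower. Nuf2, a subunit of the Ndc80 complex, stood at 13.99 FPKM in the macrophage-labelled library against 7.07 in EMPs, Mki67 at 122 against 71.7, Ndc80 at 15.7 against 9.18 and Cenpa at 7.44 against 4.37. These include 3 of the 5 centromere and kinetochore genes. After scaling, 2 genes (Mki67 and Nuf2) passed 2-fold upward, where 7.54% of all genes did. Of the cyclins, Ccnb2 stood at 71.2 against 49.0, Ccnb1 at 33.5 against 30.6 and Ccna2 at 53.7 against 46.4. Among the kinases, Aurka, the centrosomal Aurora kinase, read 14.47 against 12.98 and Plk1 34.7 against 40.2. Both liver comparisons share the EMP library. Eosinophil markers moved with this one, all 3 detected and with a sum of 6457 in macrophage-labelled cells against 215 in EMPs. Of 8 neutrophil markers 4 were over 4-fold higher, among them Ngp at 693 against 18.15 and Ltf at 73.2 against 1.38, and 3 were at least 2-fold lower. The macrophage markers Csf1r (34.1 against 12.3), Adgre1 (18.4 against 2.5) and Cd68 (20.8 against 8.01) were at least 2-fold higher. C1qb, C1qc and Fcgr1 reached an FPKM of 1 in the macrophage-labelled library only, so their direction was set by the filter. C1qa reached it in neither library. The part of these markers in the members' values was not tested.

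At E11.5 the MCPs of the limb were compared with the MCPs of the liver. Most of the 38 genes were lower in the limb, while Ect2, Ccnb2 and Mad2l1 were higher without being called. By role, 4 of 4 genes of chromosome structure were called lower, 2 of 3 of the checkpoint and 2 of 4 of the cyclins and CDK1. The centromere and kinetochore had 2 of 5, the spindle 2 of 6, the passenger complex 1 of 4 and the midzone and cytokinesis 1 of 7. None of the 3 mitotic kinases or 2 partners of the anaphase-promoting complex was called. After median-of-ratios scaling chromosome structure had 3 of 4, the cyclins and CDK1 1 of 4 and the passenger complex none, with the other roles unchanged. By the 2-fold rule 14 of 38 genes were lower and none higher, where 12.8% of 9547 genes were lower and 7.75% higher, and where 10.7% of like genes were lower. The median difference was -0.91 for the 38 genes and -0.11 for like genes. Below 0 were 35 of the 38. After median-of-ratios scaling the median was -0.77 against 0.01 for like genes, and 11 genes were called lower, where 9.36% of all genes were. In the chromosome structure group, Smc4 stood at 30.75 FPKM in the limb against 76.55 in the liver, Smc2 at 9.14 against 24.4, Mki67 at 40.9 against 93.7 and Top2a, the topoisomerase that untangles sister chromatids, at 31.4 against 66.9. Of the checkpoint genes, Bub1b, the BubR1 kinase-like subunit that inhibits CDC20, read 4.94 against 18.9 and its partner kinase Bub1 3.28 against 8.92. Mad2l1, whose product MAD2 also binds CDC20, was not lower, at 28.8 in the limb against 22.9 in the liver.

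The B cyclins parted in this comparison. Ccnb1 stood at 16.4 FPKM in limb MCPs against 40.9 in liver MCPs, a difference of -1.27, while Ccnb2 stood at 58.5 against 45.7, a difference of 0.35. Both bind CDK1, which itself read 3.68 against 8.87. Kif11, the plus-end motor that pushes spindle poles apart, read 15.6 against 35.8, Hmmr, a spindle protein, 7.66 against 21.2, Ndc80 4.36 against 15.5 and Cenpf 4.63 against 12.4. Incenp, the scaffold of the passenger complex, was called at 7.57 against 17.5, but Aurkb (19.2 against 29.5), Cdca8 (15.9 against 22.5) and Birc5, its survivin subunit (13.4 against 17.5), were not. Among the 7 midzone and cytokinesis genes Anln, a furrow scaffold, and Prc1, a midzone bundler, differed by -0.91 and -0.93, and others less, with Kif4, a midzone motor, at 10.1 against 10.3, Racgap1, the GTPase activator of centralspindlin, at 13.1 against 14.4 and Ect2 at 5.55 against 3.14. Of the 7, Kif23 alone was called, listed at 0 in the limb against 4.35. Erythroid markers, which belong to another dividing lineage of the fetal liver, summed to 13.04 FPKM in limb MCPs and 118.6 in liver MCPs (7 of the 9 fixed were in the table, Hbb-y at 0 in both), and the 8 neutrophil genes to 462 and 970. Their part in the difference was not tested.

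Limb MCPs at E14.5 were set against those at E11.5. Most members were somewhat higher at E14.5, with Bub1b, Mki67, Bub1, Incenp, Top2a and Cdc20 among the larger differences, though 1 gene was called. The median difference was 0.39 for the 38 genes and 0.08 for like genes, and 0.30 and -0.01 after median-of-ratios scaling. Above 0 were 32 of the 38 as deposited and 29 after scaling. The middle 50% of like genes ran from -0.28 to 0.43 as deposited and from -0.36 to 0.34 after scaling. By the 2-fold rule 1 gene, Kif23 (2.5 FPKM at E14.5, listed at 0 at E11.5), was called higher and none lower, where 9.86% of 9500 genes were higher and 8.13% lower. Mki67 stood at 77.6 at E14.5 against 40.9 at E11.5, Top2a at 53.9 against 31.4, Bub1b at 10.2 against 4.94, Bub1 at 6.53 against 3.28, Incenp at 13.5 against 7.57 and Cdc20, the activator that the checkpoint restrains, at 12.2 against 6.89. Smc4 (29.0 against 30.75), Smc2 (9.96 against 9.14) and Ccnb2 (61.8 against 58.5) differed little, and Mad2l1 was lower at E14.5 (19.5 against 28.8). Mast cell markers summed to 2889 FPKM at E14.5 and 782 at E11.5. The 3 fibroblast collagen genes summed to 49.8 at E14.5 and 0.42 at E11.5, the 8 neutrophil genes to 2.01 and 462 (Ltf, Camp and S100a8 at 0 at E14.5), and their part was not tested. This comparison and the preceding one share the limb library of E11.5.

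**Figure D4:**
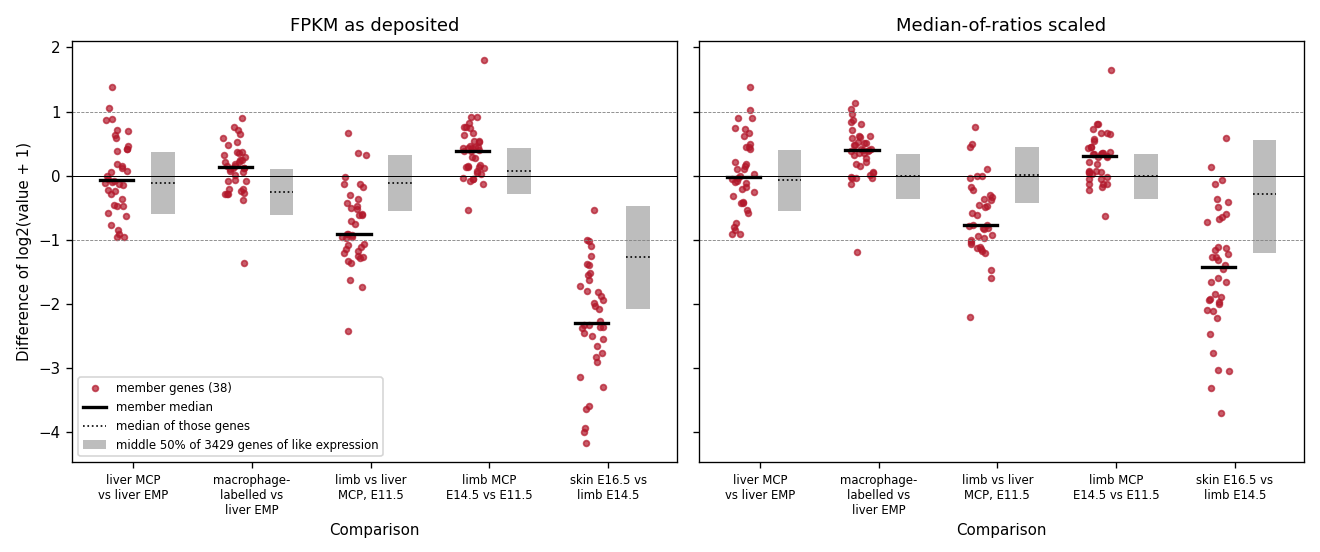
Difference of log2(value + 1) for each of the 38 genes (points, black bar at their median) in the 5 comparisons, beside the middle 50% and median of 3429 genes of like mean expression (grey box, dotted line), from FPKM as deposited (left) and after median-of-ratios scaling (right). Dashed lines mark 2-fold. The member median lay below that of like genes in the limb against the liver (-0.91 against -0.11) and in skin against the limb (-2.29 against -1.26), as deposited. Scaling divides each library by a constant and so shifts both medians nearly alike.

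Skin cells at E16.5 were set against limb MCPs at E14.5, a pair that differs in tissue and age at once. All 38 genes were lower in skin as deposited, by 1.47-fold for Smc4 to 80.7-fold for Cdca8 among the 37 listed above 0 there. By the 2-fold rule 36 of 38 were lower, but so were 55.3% of all 8984 genes and 58.9% of like genes. By a 4-fold rule 22 of 38 were lower, against 19.2% of all genes and 27.1% of like genes. The median difference was -2.29 for the 38 genes and -1.26 for like genes. After median-of-ratios scaling it was -1.43 for the 38 genes and -0.28 for like genes, with 27 of the 38 at least 2-fold lower where 30.7% of all genes and 29.5% of like genes were. Genes at least 2-fold higher in skin as deposited made up 5.21% of all, and after scaling 15.6% of all, with none of the 38 in either. The gap to like genes was -1.03 as deposited and -1.14 after scaling. All 38 genes passed the filter of an FPKM of 1, of which 15 passed through the limb library only. Mast cell markers summed to 14382 FPKM in skin and 2889 in the limb. Cpa3, a mast cell protease gene, alone stood at 13494 in skin and 1856 in the limb, so that it held a larger part of the FPKM sum in skin. Of the 6 markers, 2 were at least 2-fold higher in skin as deposited and 1 was lower, Gata2, listed at 0 against 141.93. Kit was lower without being called, at 239 against 284. Fibroblast genes summed to 10.8 in skin and 49.8 in the limb, and Krt5 and Krt14 of keratinocytes to 0.2 in skin and 0 in the limb. The part of these in the members' values was not tested.

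Among the members with the largest differences were passenger complex genes, Plk1 and Ccnb2. Cdca8 stood at 0.27 FPKM in skin, about 4 fragments (95% Poisson interval 1.1 to 10.2, counting error only), against 21.8 in the limb. Plk1 read 0.54 against 22.5 and Aurkb 1.29 against 26.5, with 11 and 23 estimated fragments in skin. Racgap1 read 0.48 against 17.4, Birc5 0.69 against 13.8 and Ccnb2 2.94 against 61.8. Ccnb1, below Ccnb2 in both, read 2.03 against 21.8. Cdk1 read 0.15 against 4.75, about 6 fragments in skin with an interval of 2.2 to 13.1. Every one of these values lay under those of all 5 other libraries.

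At the other end were Mki67 and Smc4, 2 of the 4 genes of chromosome structure. Mki67 stood at 38.3 FPKM in skin against 77.6 in limb MCPs at E14.5, on an estimated 3567 fragments in skin, and Smc4 at 19.7 against 29.0. After median-of-ratios scaling the direction of both turned, to 73.2 in skin against 66.4 in the limb for Mki67 and 37.6 against 24.8 for Smc4, and no other member stood above 0. Nusap1 and Cenpf, a microtubule-bundling and a kinetochore protein, were at 4.94 and 2.11 in skin against 11.65 and 5.27 in the limb. Scaled, they differed by -0.07 and -0.13. Hmmr and Cenpe, a kinetochore motor, read 3.51 and 2.02 in skin against 10.8 and 6.83. The other 2 genes of chromosome structure were over 4-fold lower, Top2a at 9.68 against 53.9 and Smc2 at 1.29 against 9.96.

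Where a gene fell along this range went with the length and base composition of its transcript. Across the 38 genes the difference had a Pearson r of 0.57 (Spearman 0.59) with transcript length and -0.59 (-0.56) with GC content. Across 3324 like genes the same values were 0.13 (0.22) and -0.38 (-0.41). Points share both libraries and are described, not tested. Median GC was 46.4% for the 38 genes and 49.1% for like genes, and median length 3144 and 2857 bases. When like genes were split into 5 equal classes by GC, the member median minus that of like genes was -0.94 to -1.45 across the classes, which held 13, 8, 8, 7 and 2 members. In 5 classes by length it was -0.72 to -1.49. How much of the spread among the members came from these properties was not tested.

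**Figure D5:**
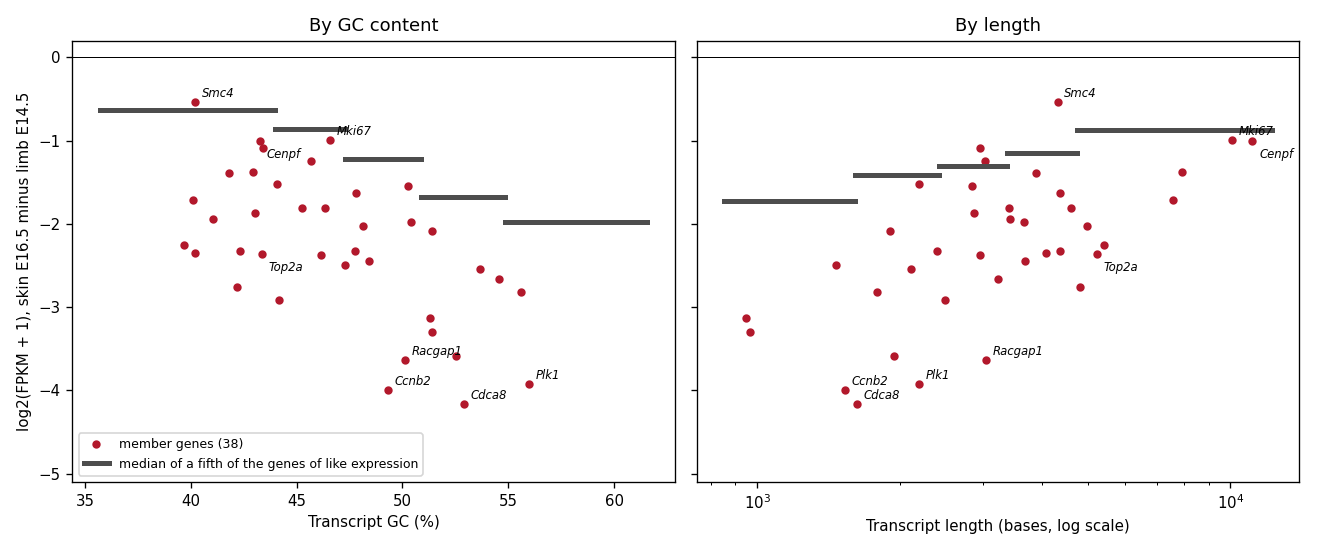
Difference of log2(FPKM + 1), skin cells at E16.5 minus limb MCPs at E14.5 (vertical), for the 38 genes (points) against transcript GC content in percent (left) and transcript length in bases on a log axis (right). Grey bars give the median of like genes in 5 equal classes of GC or length, drawn over the range the members span. Short, GC-rich transcripts such as Cdca8 lie lowest, and Smc4 lies highest.

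Further genes of mitosis, listed apart from the 38, had medians below 0 for limb against liver and skin against limb, and above 0 for E14.5 against E11.5, as the 38 genes did. Of 94 in the table, 25 of 89 tested were at least 2-fold lower and 4 higher in limb against liver MCPs at E11.5, with a median of -0.41. The shares over all genes were 12.8% lower and 7.75% higher. At E14.5 against E11.5 in the limb 15 of 90 were higher and 3 lower, with a median of 0.39, where 9.86% of all genes were higher and 8.13% lower. In skin against the limb 76 of 87 were lower as deposited, with a median of -1.87, and 57 after scaling, with a median of -1.31, where 55.3% and 30.7% of all genes were lower. None was higher on either scale. Casc5, the kinetochore scaffold KNL1, Zwilch, a checkpoint subunit of the kinetochore, and Anapc1, the largest subunit of the anaphase-promoting complex, were listed at 0 in limb MCPs at E11.5, against 14.2, 7.27 and 13.9 in liver MCPs. They read 7.73, 3.44 and 10.01 in the limb at E14.5, so that these zeros account for some of the calls on both steps. Pmf1, a kinetochore linker gene, stood at 1.16 in skin against 29.0 in the limb, and Ncaph, a condensin subunit, at 0.29 against 13.0. In liver MCPs against EMPs 5 of 90 were higher and 11 lower, where 9.23% of all genes were higher and 11.6% lower. Among the lower genes were Spc24, of the Ndc80 complex (7.92 against 33.6), and Fzr1, the CDH1 activator of the anaphase-promoting complex (2.38 against 9.71). The median difference of the macrophage-labelled library against EMPs was 0.10 over 91 genes. There 4 were higher and 3 lower, where 5.86% of all genes were higher and 9.84% lower.

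Regulators that act on the CHR and CCAAT elements were taken as a list of 16. In skin against the limb 15 were at least 2-fold lower as deposited and 9 after scaling, where 55.3% and 30.7% of all genes were, with medians of -1.63 and -1.13. Among them as deposited were Foxm1 at 1.20 FPKM against 16.03 and the NF-Y subunit gene Nfya listed at 0 against 8.71. Across libraries Foxm1 stood at 24.4 (macrophage-labelled), 19.05 (EMPs), 11.49 (liver MCPs), 8.59 and 16.03 (limb, E11.5 and E14.5) and 1.20 (skin). Mybl2 read 9.63 in macrophage-labelled cells and 1.77 in EMPs, with 2.53 (E11.5) and 3.86 (E14.5) in limb MCPs, and was listed at 0 in liver MCPs and skin. In limb against liver MCPs at E11.5, 3 of the 16 were lower and 1 higher, where 12.8% of all genes were lower and 7.75% higher. The NF-Y genes Nfyb and Nfyc stood at 1.71 against 6.42 and 0.92 against 4.96. The median over the list was -0.10, against -0.91 for the 38 genes.

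DNA replication genes, which act before mitosis, moved with the 38 genes on the same steps. In limb against liver MCPs at E11.5, 16 of 42 were at least 2-fold lower and none higher, with a median of -0.72. Of all genes 12.8% were lower there and 7.75% higher. Pole, of the leading-strand polymerase, stood at 0.55 in the limb against 4.34 in liver MCPs. It was listed at 0 in EMPs, macrophage-labelled cells and skin, and at 0.39 in the limb at E14.5. In the limb at E14.5 against E11.5, 8 were higher and 1 lower, with a median of 0.48, where 9.86% of all genes were higher and 8.13% lower. Mcm10 and Rfc1 were listed at 0 in limb MCPs at E11.5, against 6.38 and 7.82 in liver MCPs. They read 2.77 and 2.86 in the limb at E14.5, so that these zeros account for some of the calls on both steps. Chaf1b was also listed at 0 in the limb at E11.5, against 1.74 at E14.5. In skin against the limb 39 of 42 were lower as deposited, with a median of -2.32, where 55.3% of all genes were lower. After scaling 31 were lower and 1 higher, with a median of -1.75, where 30.7% of all genes were lower and 15.6% higher. Mcm5 and Mcm7, subunits of the replicative helicase, stood at 0.56 and 0.76 FPKM in skin against 32.75 and 32.3 in the limb, and Gins2, of the same helicase, at 1.93 against 41.6. In liver MCPs against EMPs the list had 2 of 43 higher and 5 lower, with Mcm5 at 20.6 against 63.7. Of all genes 9.23% were higher and 11.6% lower, so both counts stood near or under those shares. In the macrophage-labelled library against EMPs the median of the list was -0.39, below 0 while that of the 38 genes was above.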

How the data were processed

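Per the labels' protocols, total RNA of sorted cells was extracted with TRIzol and sequenced on the Illumina HiSeq platform. The authors deposited 1 table of FPKM values with 2 decimals, for which the submitters' processing notes name Bowtie2, RSEM and the build mm10, that is GRCm38; no tool version is given there. Of 17913 rows, 4 with a repeated name were dropped.

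The members and gene lists were chosen with earlier results of these data known. Differences are of log2(FPKM + 1), which understates changes of low genes, and fold values are ratios of FPKM. Counts at 2-fold and 4-fold took in genes that reached an FPKM of 1 in one or both of the libraries compared; no test was possible. Size factors were medians of ratios over 4580 genes at an FPKM of at least 1 in all libraries. Genes of like expression had a mean log2(FPKM + 1) between the 10th and 90th percentile of the members. By a method chosen after seeing the data, depth was estimated from the FPKM steps of 1384 single-transcript genes (GENCODE M21, 50 bases taken off each length); 79.2% to 83.8% of values lay within 0.2 of a whole fragment, and the method was tested on simulated data. Member fragments used the longest APPRIS principal transcript. Of the 38 genes, 8 overlap a coding gene on the opposite strand (Ccna2, Cdc20, Kif20a, Kif4, Nusap1, Prc1, Ube2c and Cdca8), and whether counting used strand is not given. All members could be named; of other lists, at most the 3 largest differences per direction past 2-fold. Python 3.11.15 and pandas 2.3.3 were used.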

Additional observations from a re-analysis of the deposited data

How the results depend on the processing

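Alternatives were median-of-ratios and TPM scaling, pseudocounts of 0.1 and 5, no filter, an FPKM of at least 10, and leaving out members listed at 0. Of the recomputed values, 87 kept their direction and stayed within 1.5 times the count, or for medians within 1 SD among the members, 17 moved further and 1 median turned. No filter changed nothing for the 38 genes. In liver MCPs against EMPs, TPM scaling gave 4 genes higher and a median of 0.0768 instead of -0.06. There, 1 gene was lower with a pseudocount of 0.1, 0 were higher with a pseudocount of 5, and 1 was higher at an FPKM of at least 10. In the macrophage-labelled library against EMPs, 2 genes were higher under median-of-ratios and 1 under TPM scaling, and the 1 lower gene went to 0 with a pseudocount of 5, at an FPKM of at least 10, and without members at 0. In limb against liver MCPs, 7 instead of 14 were lower with a pseudocount of 5 and 20 with 0.1. Within those limits, median-of-ratios scaling still took the median of the macrophage-labelled library against EMPs to 0.40 from 0.14, and that of skin against the limb to -1.43 from -2.29, with 27 instead of 36 genes lower. At E14.5 against E11.5, 2 were higher with a pseudocount of 0.1 and 0 with a pseudocount of 5, at an FPKM of at least 10, and without members at 0. In skin against the limb, 23 were lower with a pseudocount of 5 (median -1.16), and 20 at an FPKM of at least 10, where 22 genes remained. Pseudocounts act on low values and the higher filter on the number of genes; for the scalings the cause was not tested. No paired analysis was possible because each group held 1 library.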

Other observations

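Genes of G1 and of cell cycle exit, outside the mitosis set, were counted by the same 2-fold rule. Of 18 G1 and S phase cyclins, CDKs and E2F genes, 6 were at least 2-fold lower and 2 higher in the macrophage-labelled library against EMPs. The shares over all genes were 9.84% lower and 5.86% higher. Among the lower genes, Cdk6, the D cyclin kinase, stood at 37.97 FPKM against 154, Ccnd2, cyclin D2, at 1.30 against 7.17 and Myc at 33.1 against 104. E2f2 was higher, at 9.08 against 2.5. In liver MCPs against EMPs 2 were lower, near the 11.6% of all genes lower, with Cdk6 at 56.4 against 154. None of 17 passed 2-fold in limb against liver MCPs at E11.5, where 12.8% of all genes were lower and 7.75% higher. In skin against the limb 12 of 17 were lower as deposited and 8 after median-of-ratios scaling, where 55.3% and 30.7% of all genes were, with medians of -1.50 and -0.72. Ccnd3, cyclin D3, stood at 0.39 against 16.3.

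Of the 14 genes fixed for CDK inhibition and cell cycle exit, 13 were in the table and 10 were tested in liver MCPs against EMPs. There 5 were at least 2-fold higher and none lower, where 9.23% of all genes were higher and 11.6% lower. Cdkn1c, which encodes the CDK inhibitor p57, stood at 4.91 FPKM against 0.38 and so passed the filter through liver MCPs only. The antiproliferative genes Btg1 and Btg2 stood at 30.1 and 21.5 against 9.26 and 6.24. In the macrophage-labelled library against EMPs, 4 of 10 were higher, with Klf4 at 16.1 against 3.99, where 5.86% of all genes were higher. Cdkn1a, the p21 inhibitor, stood at 57.1 in limb MCPs at E14.5 against 22.0 at E11.5, on the step where most mitosis genes were also higher, and at 15.2 in skin. In skin against the limb 6 of 11 were lower and none higher as deposited, near the 55.3% of all genes lower. After scaling 5 were lower and 1 higher, where 30.7% of all genes were lower and 15.6% higher.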
